A study of Mus musculus with 21 samples.

Results

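The clustered replication-dependent histone genes were described here across 21 RNA-seq libraries of E0771, a mouse mammary carcinoma line. The genes were chosen by name alone: protein-coding genes whose symbol begins with Hist1h, Hist2h, Hist3h or Hist4h, which gave 67 of the 55573 genes in the table. They encode 6 linker H1 histones and, for the nucleosome core, 18 H2A, 18 H2B, 12 H3 and 13 H4 histones. On mm10, with GENCODE vM21 gene models, 54 of them lie on chromosome 13 between 21715763 and 23934851, 10 on chromosome 3 between 96219865 and 96270132, 2 on chromosome 11 between 58948920 and 58956830, and 1 (Hist4h4) on chromosome 6 between 136801553 and 136804415.

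The study has 7 groups of 3 libraries, and every cell line in it carries GFP. The groups were the parental line E0771GFP, untreated; E0771GFP-EV, with an empty vector; E0771GFP-ZBTB18OE, which overexpresses the transcriptional repressor ZBTB18; and the latter line with a doxycycline-inducible TGFBR2, the type II receptor for TGF-beta, given doxycycline (1 mg/mL, as the labels write it) with either vehicle or TGF-beta1 (2 ng/mL). The remaining groups were M11GFP and M12GFP, lines derived from E0771GFP through spontaneous lung metastasis. The labels name no clone status, treatment time or batch. They do not say whether the 3 libraries of a group came from separate cultures, so the p-values measure only the spread between these libraries, which may be technical. RNA was selected for poly(A) tails before library preparation.

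Replication-dependent histone genes are switched on in S phase, when new DNA has to be packed into nucleosomes. Their transcripts are the main class of mRNA in animal cells without a poly(A) tail. A short hairpin just past the stop codon, bound by the protein SLBP, marks where the U7 small nuclear ribonucleoprotein directs the cut, and it takes over the tail's part in export, translation and decay. Several of these genes also make a longer, polyadenylated transcript that ends at a conventional signal further downstream, and this form is known from cells that divide slowly or have left the cycle. A poly(A)-selected library therefore sees mainly these longer forms, plus whatever tail-less RNA passes the selection.

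The hairpin is shown here because the ends of these transcripts bear on what such libraries can capture. The sense strand of the annotated transcripts was searched for the 16-base hairpin, in which the first and last 6 bases had to pair, the outer bases to be GG and CC, and CTT and AG to stand around the loop at their usual places. It was found in 46 of the 67 genes and in 9 of 21799 other protein-coding genes (0.0413%). Of the 21 without it, 15 are annotated for at most 10 bases past the stop codon, so the sequence where it would lie is outside the gene model. A conventional AATAAA signal stood in the last 50 bases of 14 transcripts, of which 11 also had the hairpin. The following sites, from the GENCODE vM21 transcripts, 5′ to 3′, show the main spellings for genes discussed in the results, with the 16 bases of the hairpin in capitals:
Hist1h1c: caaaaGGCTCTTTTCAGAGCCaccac
Hist1h1d: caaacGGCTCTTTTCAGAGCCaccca
Hist3h2a: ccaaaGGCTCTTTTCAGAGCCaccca
Hist1h2bb: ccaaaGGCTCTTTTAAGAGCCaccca
Hist1h3f: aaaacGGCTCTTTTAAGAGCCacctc
Hist1h3g: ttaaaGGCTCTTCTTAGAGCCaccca
Hist1h4b: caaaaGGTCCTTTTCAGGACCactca
Hist1h4f: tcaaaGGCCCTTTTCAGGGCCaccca
Hist2h4: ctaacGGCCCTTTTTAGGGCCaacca

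The form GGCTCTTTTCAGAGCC, seen in Hist1h1c, Hist1h1d and Hist3h2a, was the commonest, with 26 genes. The form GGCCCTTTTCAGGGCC was found in 7 genes, all of them H4 genes, and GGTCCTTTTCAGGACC in 2, Hist1h4b and Hist1h4j. The genes differed more in how far the annotated transcript runs on. It ends 28 bases past the hairpin in Hist1h4b, 840 bases past it in Hist1h1c, 1643 bases past it in Hist3h2a and 4884 bases past it in Hist1h1d. No hairpin was found in Hist1h2bc, whose transcript runs 742 bases past the stop codon, or in Hist2h2be, whose transcript runs 2192 bases past it and has AATAAA at its end.

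Library depth ranged from 24208569 counts (M11 replicate 3) to 90518872 (vehicle replicate 1). Outside parental replicate 1 the 67 genes together took 0.003467% to 0.01095% of a library's counts. The genes named in the labels followed them: Zbtb18 stood at 106 to 124 CPM (counts scaled to a library of fixed size) in ZBTB18OE and 24.1 to 25.7 in EV, and Tgfbr2 at 566 to 626 CPM in the vehicle and TGF-beta1 libraries and at most 27 CPM elsewhere. In the other groups Zbtb18 averaged 95.2 CPM with TGF-beta1, 82.9 with vehicle, 59.2 in M12, 34.7 in M11 and 29.5 in the parental line. Of the line's lineage markers, summed epithelial genes (Krt8, Krt18, Krt7, Epcam, Cdh1) reached 111 to 349 CPM, nearly all of it Krt8. Vim, Fn1 and Cdh2 together reached 2170 to 5460 CPM, nearly all of it Vim, with Cdh2 under 0.1 CPM in every library. Cdh1 stayed under 0.149 CPM. The 6 blood markers summed to 6.46 to 70.7 CPM and the 3 endothelial markers to 0.114 to 3.99. The 3 fibroblast markers summed to 62.9 to 145 CPM, nearly all of it Pdgfra. Dcn and Lum were under 0.1 CPM in every library.

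Parental replicate 1 stood apart from all other libraries in these genes, so its values come first, and later counts of clustered histone genes called are given with and without it. Values of other genes come from the fit of all libraries unless stated. It held 15215 counts from the 67 genes, against 2672 and 2145 in parental replicates 2 and 3. As CPM after TMM scaling, which corrects for differing library composition, the sum was 431 in replicate 1 and 60.9 in each of the other 2 parental libraries. In TPM, which also divides by transcript length, it was 899, against 61.7 to 178 over the other 20 libraries. No other library came near this value, and the gap to the next highest exceeded the whole range of the rest.

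The excess in that library ran through all 5 histone classes but was uneven between genes. 58 of the 67 genes had their highest value of the 21 libraries there. For the 53 genes with at least 10 counts in parental replicates 2 and 3 together, the ratio of replicate 1 to the mean of those 2 libraries had a median of 10.9 and ran from 1.16 to 74.8. 49 of them were more than 2-fold and 47 more than 4-fold higher, against 2.7% and 0.552% of the 14686 tested genes with the same minimum, whose median ratio was 1. By class the median ratio was 25.3 for H1, 8.07 for H2A, 11 for H2B, 7.64 for H3 and 14 for H4.

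At the upper end stood Hist2h2bb, an H2B gene annotated for little beyond its stop codon, at 8.95 CPM in replicate 1 against 0.182 and 0.0568 (ratio 74.8). Hist1h4f, with the H4 form of the hairpin, stood at 11.5 CPM against 0.319 and 0.114 (ratio 53.3). Hist1h1d, the H1 gene of chr13:23553262-23560686 (plus strand), stood at 28.3 CPM against 0.524 and 0.568 (ratio 51.8). In these 3 genes replicate 1 alone was high, and no other library of the study reached 0.6 CPM.

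At the lower end stood the 3 genes listed here as known for polyadenylated transcripts, with Hist1h2ae (ratio 1.83) and Hist3h2a. That list was made with earlier results of these data known. Hist2h2be, an H2B gene of chr3:96221119-96223738, was at 8.44 CPM in replicate 1 against 7.34 and 7.21 (ratio 1.16). Hist1h1c, the H1 gene of chr13:23738808-23740367, was at 24.1 CPM against 11 and 19.1 (ratio 1.6), below all 3 EV libraries. Hist1h2bc, the H2B gene of chr13:23684199-23692908, was at 8.1 CPM against 4.26 and 4.03 (ratio 1.95). Hist3h2a, an H2A gene of chr11:58954685-58956830, had a ratio of 2.82. For Hist2h2be, Hist1h1c and Hist1h2bc that library was not the highest of the 21.

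Genes were then grouped by features of the annotated transcript, where holding a hairpin does not mean ending at it. In Hist1h1d, for example, the transcript runs 4884 bases past it. The 31 genes with a hairpin and no AATAAA in the last 50 bases had a median ratio of 11.3 (3.95 to 53.3). Of them 30 were above 4-fold. The 9 whose annotation stops within 10 bases of the stop codon had a median of 11.2 (7.64 to 74.8). The 11 with AATAAA at the end had a median of 6.15 (1.16 to 34.1), and 7 of these were above 4-fold. The remaining 2 were Hist1h2bc and Hist1h1a, the latter at a ratio of 17.4. The ranges overlapped, with genes such as Hist2h4 (ratio 34.1) that have AATAAA and were still strongly raised, so this grouping did not sort the genes cleanly. H2afx, a histone gene outside the clusters that makes both a hairpin-ended and a polyadenylated transcript and whose annotated transcript holds the motif, had a ratio of 1.12 (58 CPM against 51.9 and 52.1).

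**Figure D1:**
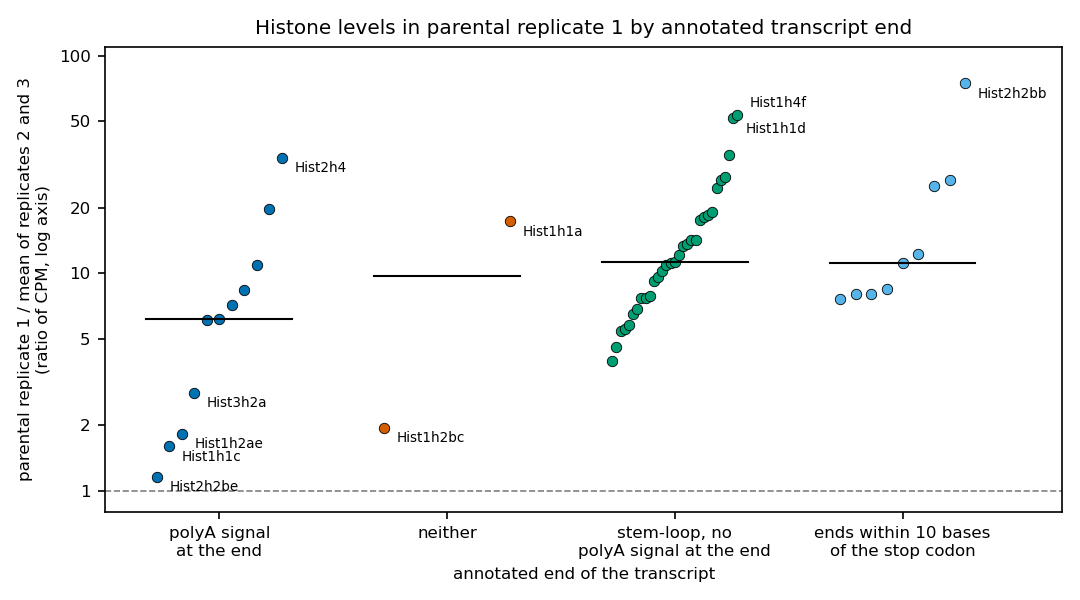
Ratio of CPM in parental replicate 1 to the mean CPM of parental replicates 2 and 3 (log axis). Shown are the 53 clustered histone genes with at least 10 counts in replicates 2 and 3. Groups are set by AATAAA in the last 50 bases, a hairpin anywhere in the annotated transcript, or an annotation that stops near the stop codon. Each point is 1 gene, placed in rising order within its group, and the line marks the group's median. Hist2h2be and Hist1h1c lie near a ratio of 1, while the genes with a hairpin and no AATAAA in the last 50 bases lie between 3.95 and 53.3.

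RNAs that have no poly(A) tail for other reasons were also high in that library. Gm42418, a gene overlapping ribosomal RNA sequence, took 14% of its counts and at most 0.0918% elsewhere. Rn7sk (ratio 336), Rmrp (496), Rpph1 (255) and Rn7s1 (327), small structural RNAs made by RNA polymerase III, stood 255-fold to 496-fold above the other 2 parental libraries, a larger ratio than any clustered histone gene showed. Gm26917, also tail-less, had a ratio of 19.4. The TMM factor of the library was 0.839. Whether poly(A) selection in that library had a part in its histone values was not tested.

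Leaving that library aside, 3 genes carried most of the CPM pooled over groups, but not most of it within every group. Over the 6 other groups Hist1h1c made up 32.2% of the summed CPM, Hist1h2bc 11.7% and Hist2h2be 11.6%, or 55.5% together, and Hist3h2a a further 6.14%. Hist1h1c, Hist1h2bc and Hist2h2be held 19.1 of 43.1 CPM with vehicle and 20.2 of 41.7 with TGF-beta1. In TPM they held 17.2 of 87 with vehicle, 24.3 of 95.8 in ZBTB18OE and 64.9 of 134 in EV. Only 18 of the 67 genes reached a group mean of 1 CPM. CPM does not correct for length, so levels were compared between genes in TPM, over the 20 other libraries. The highest of each class were Hist1h1c for H1 (mean 18.5 TPM), Hist1h2ab for H2A (5.7), Hist1h2bc for H2B (9.27), Hist1h3g for H3 (2.11) and Hist1h4h for H4 (3.62), the last close to Hist1h4b (3.54) and Hist1h4m (3.33). With parental replicate 1 included, Hist1h3i and Hist1h3g led H3 (2.57 TPM each) and Hist1h4m led H4 (6.66 TPM). Hist1h1d, for which GENCODE gives a long transcript, had 3.77 TPM in parental replicate 1 and 0.03 to 0.1 TPM elsewhere.

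In these tissue-culture cells, several members were at or near 0. The testis gene Hist1h2ba had no count in any library, which allows up to 3 counts in each, and the testis genes Hist1h2aa and Hist1h1t had 2 and 6 counts in all. In total 6 genes had under 10 counts over the 21 libraries. The edgeR filter on low counts kept 48 of the 67 genes among 15432 tested, and 19 were not tested. Among those 19, Hist2h2bb had 404 counts of which 316 were in parental replicate 1, and Hist2h3b, an H3 gene, 170 of which 117 were there. Members share sequence, so their counts are partly an allocation: the median gene had 49.3% of its 50-base words in another member, with class medians from 1.1% for H1 and 39.5% for H4 to 73% for H2A, and 31 genes shared at least 50% of theirs. Hist1h1c (8.5%), Hist1h1d (2.2%), Hist3h2a (2%) and Hist2h2be (0%) are nearly free of this, Hist1h2bc shares 29.4%, and Hist2h2aa2 (100%) and Hist1h2br (99.8%) can hardly be told from their copies, so their calls are uncertain.

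In CPM summed over the 67 genes, EV and M12 were the highest groups outside the parental line and the 3 ZBTB18-overexpressing groups the lowest. M12 itself had more Zbtb18 than EV (59.2 ± 9.96 against 25.1 ± 0.91 CPM). The sum was 81.6 ± 6.55 CPM in EV (SD, n = 3, as for each group mean), 82.8 ± 21.6 in M12, 57 ± 8.68 in M11, 45.7 ± 4.96 in ZBTB18OE, 43.1 ± 3.65 with vehicle and 41.7 ± 8.62 with TGF-beta1. The parental group was at 184 ± 214, or 60.9 without replicate 1. In TPM, EV (134 ± 9.9) and M12 (149 ± 25) were again highest, but ZBTB18OE (95.8 ± 10.8) was not below M11 (95 ± 11.2). Vehicle stood at 87 ± 8.57 TPM and TGF-beta1 at 80.5 ± 21.9. The neighbours ZBTB18OE, vehicle and TGF-beta1 did not differ beyond their spread, and neither did EV and M12.

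The sum was split into the 3 genes listed as known for polyadenylated forms (Hist1h1c, Hist1h2bc, Hist2h2be) and the other 64. That list was made with earlier results of these data known, so the split is a description and no test of such forms. The 3 genes did not move alike. The means of Hist1h1c and Hist1h2bc were highest in EV. Hist2h2be stood at 2.96 to 5.47 CPM in EV, 6.96 to 8.25 with vehicle and 8.78 to 13.7 in M12. Some of the other 64, such as Hist2h4, also have AATAAA at the annotated end. The 3 genes summed to 58.9 ± 5.02 CPM in EV, 43.8 ± 17.8 in M12, 29.7 ± 5.96 in M11, 23.6 ± 2.03 in ZBTB18OE, 20.2 ± 3.15 with TGF-beta1 and 19.1 ± 1.87 with vehicle. M12 replicate 1 stood at 64.3 CPM, above replicates 2 and 3 at 32.9 and 34.1. The other 64 genes summed to 39 ± 4.34 CPM in M12, 27.3 ± 3.31 in M11, 24.1 ± 2.33 with vehicle, 22.7 ± 1.61 in EV, 22.1 ± 3.23 in ZBTB18OE and 21.5 ± 5.59 with TGF-beta1. In the parental line they summed to 390 CPM in replicate 1 and to a mean of 34.4 in replicates 2 and 3. For those 64 genes, EV, ZBTB18OE and both receptor groups lay within their own spread, and M12 lay above them.

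**Figure D2:**
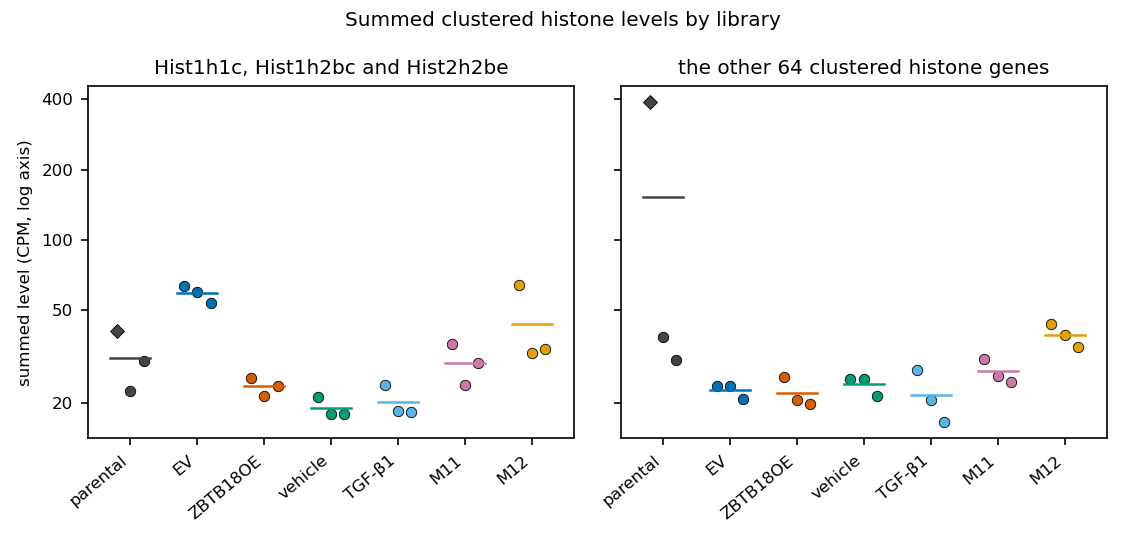
Summed CPM (log axis) per library for the 3 genes listed as known for polyadenylated forms and for the other 64 clustered histone genes, by group. Each point is 1 library, the line marks the mean of 3 libraries, and the diamond is parental replicate 1. That library stands at 390 CPM for the 64 genes, while for the 3 genes the mean of EV is the highest and those of ZBTB18OE, TGF-beta1 and vehicle are the lowest; M12 replicate 1, at 64.3 CPM, is far above the other M12 libraries.

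The first comparison sets ZBTB18OE against EV. Hist1h2bc and Hist1h1c were lower in ZBTB18OE, and with all 21 libraries fitted no clustered histone gene was called higher. In bulk RNA, fewer cells that make a transcript and less of it per cell cannot be told apart. Hist1h2bc stood at 15.2, 13.5 and 12.3 CPM in the 3 EV libraries and at 3.75, 1.83 and 2.75 in the 3 ZBTB18OE libraries. The groups did not overlap, and the gene was 4.92-fold lower with ZBTB18 (log2 change −2.30, SE 0.36, adjusted p = 9.53e-05 by edgeR's quasi-likelihood test with Benjamini-Hochberg adjustment over all genes tested, as for every adjusted p here). Hist1h1c stood at 43.7, 40.9 and 38.2 CPM in EV and at 18.5, 15.7 and 16.4 in ZBTB18OE. Every EV library was again above every ZBTB18OE library, a 2.43-fold lower level (log2 change −1.28, SE 0.324, adjusted p = 0.0066). EV was also above every parental library in both genes. In the parental line Hist1h1c stood at 24.1, 11 and 19.1 CPM and Hist1h2bc at 8.1, 4.26 and 4.03.

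These 2 were all the calls among 48 members tested, 4.17% in either direction against 28.4% of all genes, and 14.5% of all genes fell. The median log2 change of the members was 0.12, and 0.01 over all genes. Hist2h2be, the third gene listed for polyadenylated forms, was at 4.43, 5.47 and 2.96 CPM in EV and at 3.28, 4.03 and 4.58 in ZBTB18OE. The libraries overlapped (log2 change −0.11, adjusted p = 0.718). Hist3h2a was at 2.63 ± 0.283 and 1.96 ± 0.551 CPM, also overlapping.

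Fitted without parental replicate 1, which is in neither group but enters the shared estimate of spread, the counts became 1 higher and 4 lower, against 29.1% of all genes called. The genes that joined were chosen after their values were seen. Hist1h2bg, an H2B gene of chr13:23571396-23572013, stood at 3.09, 2.71 and 2.51 CPM in EV and at 1.31, 1.2 and 1.29 in ZBTB18OE (log2 change −1.13, SE 0.226, adjusted p = 0.000655). Hist1h1d stood at 0.364, 0.273 and 0.396 CPM in EV and at 0.155, 0.166 and 0.182 in ZBTB18OE. Its log2 change was −1.04 in both fits, while the SE was 1.43 with that library (adjusted p = 0.65) and 0.29 without it (adjusted p = 0.00965). Hist1h1a moved the other way, from 0.105 ± 0.0234 to 0.31 ± 0.0662 CPM (log2 change 1.49, SE 0.439, adjusted p = 0.0136). Of 7 RNAs without a tail, Rmrp (0.401 ± 0.175 against 0.961 ± 0.114 CPM) and Gm26917 were lower in that fit too, and their part was not tested.

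**Figure D3:**
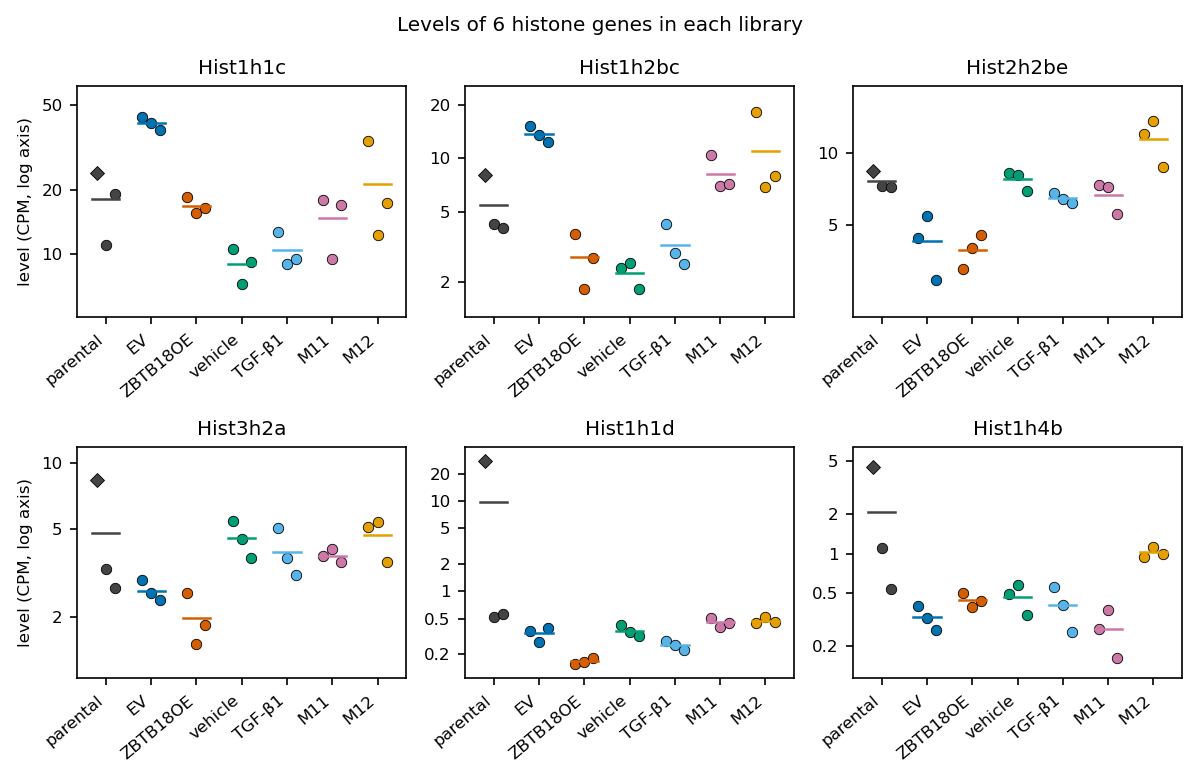
CPM per library (log axis) for Hist1h1c, Hist1h2bc, Hist2h2be, Hist3h2a, Hist1h1d and Hist1h4b, by group; each point is 1 library, the line marks the mean of 3 libraries, and the diamond is parental replicate 1. For Hist1h1c and Hist1h2bc the mean is highest in EV, and every EV library lies above every parental and every ZBTB18OE library. Hist1h1d reaches 28.3 CPM in parental replicate 1 alone.

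Genes that process or handle histones moved in both directions with ZBTB18, beside 28.4% of all genes called. Of 16 genes for histone mRNA processing, 2 rose and 2 fell. Slbp, the hairpin-binding protein, fell by 0.23 on the log2 scale (adjusted p = 0.0252), while Zfp473, a U7-associated zinc finger protein, rose by 0.67. Of 11 replacement histones, which are also made outside S phase and mostly from polyadenylated mRNA, 9 were tested. Of these 2 rose and 2 fell, including a rise of H1f0, the linker histone of resting cells (log2 change 0.43, adjusted p = 0.0112). Of 18 histone chaperones 2 rose and 2 fell, and of 43 DNA replication genes 6 rose and 7 fell, led by Ccne1 (0.75) and Rrm2 (−0.68). Pcna, the replication clamp, did not pass (log2 change 0, adjusted p = 0.998).

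The genes around the clusters were counted too. Of 86 other genes within 1 Mb of the chromosome 13 cluster, 16 were tested, and 9 of these fell while none rose (56.2% called, against 28.4% of all genes, median log2 change −0.43). Around the chromosome 3 cluster 6 rose and 3 fell of 44 tested. Around the chromosome 11 cluster 4 rose and 3 fell of 32, and around Hist4h4 1 rose and 4 fell of 12. Over all clusters 11 rose and 19 fell of 104 tested (28.8% called, median log2 change −0.05), close to the share of all genes. Both falling histone genes lie in the chromosome 13 cluster. Whether the fall of the chromosome 13 neighbours and that of Hist1h1c and Hist1h2bc are linked was not tested.

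The promoters of Hist1h1c and Hist1h1d are shown because both genes were lower with ZBTB18 in the fit without parental replicate 1, and because H1 promoters differ from those of the core histones. RefSeq (GRCm38.p6) gave 62 promoters for 61 of the genes, each 250 bases before to 50 after the start. AAACACA, the H1 box, was found on either strand in 5 of 6 H1 promoters (83.3%) and in 7.18% of all 32851 promoters. ATTTGCAT, the octamer bound by OCT1, was in 7 of 17 H2A and 7 of 17 H2B promoters, in no H1, H3 or H4 promoter, and in 1.74% of all. CCAAT was in all H1, H2A, H2B and H3 promoters, in 3 of 12 H4 promoters, and in 37.4% of all. TATAAA was in 35 of the 62 (56.5%) and in 13.6% of all. ACATCTG, the core of the site known for ZBTB18, was in none of the 62 and in 4.43% of all, which says only that these letters are not in this window. The 250 bases before each start follow, on the plus strand, with matches of the H1 box, the CCAAT box and the TATA box on either strand in capitals. Hist1h1d (RefSeq symbol H1f3) lies at chr13:23554782-23555031 and Hist1h1c (H1f2) at chr13:23738557-23738806. The window of Hist1h1d falls inside its GENCODE transcript (chr13:23553262-23560686), whose start is thus not the RefSeq start.
Hist1h1d: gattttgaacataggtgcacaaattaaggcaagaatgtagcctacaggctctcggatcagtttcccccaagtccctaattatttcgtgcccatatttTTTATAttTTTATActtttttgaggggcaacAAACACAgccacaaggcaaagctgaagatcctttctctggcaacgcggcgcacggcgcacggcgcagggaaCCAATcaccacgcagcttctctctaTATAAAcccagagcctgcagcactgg
Hist1h1c: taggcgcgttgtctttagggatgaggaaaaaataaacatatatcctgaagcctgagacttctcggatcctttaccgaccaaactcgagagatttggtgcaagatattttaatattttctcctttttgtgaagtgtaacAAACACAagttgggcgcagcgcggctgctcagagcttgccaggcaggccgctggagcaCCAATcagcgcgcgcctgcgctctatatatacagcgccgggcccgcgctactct

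The next comparison sets the line with the inducible receptor, given doxycycline and vehicle, against ZBTB18OE. By the labels it differs in the receptor construct and in doxycycline, which cannot be told apart. Zbtb18 itself was also lower with vehicle (82.9 ± 6.49 against 113 ± 9.64 CPM, log2 change −0.45, adjusted p = 0.00162), and its part was not tested. Hist2h2be and Hist3h2a rose, and Hist1h1c and Hist1h2ad fell, 8.33% of 48 members tested against 38.8% of all genes. Hist2h2be stood at 8.25, 8.14 and 6.96 CPM with vehicle and at 3.28, 4.03 and 4.58 in ZBTB18OE (log2 change 0.98, SE 0.189, adjusted p = 0.000332). Hist3h2a stood at 5.48, 4.53 and 3.69 CPM with vehicle and at 2.57, 1.49 and 1.82 in ZBTB18OE (log2 change 1.22, SE 0.321, adjusted p = 0.00504). In both genes every vehicle library was above every ZBTB18OE library.

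Hist1h1c went the other way, at 10.6, 7.29 and 9.22 CPM with vehicle against 18.5, 15.7 and 16.4 (log2 change −0.90, SE 0.328, adjusted p = 0.0392). Its libraries did not overlap, but the call was lost on leaving out any of the 3 ZBTB18OE libraries or vehicle replicate 2 or 3, with changes of −0.76 to −0.95. Hist1h2ad, an H2A gene at under 0.4 CPM in both groups, fell by 2.17 (adjusted p = 0.0234), and leaving out ZBTB18OE replicate 2 left 2 calls of the 4. Hist1h2bc did not pass (2.27 ± 0.396 against 2.78 ± 0.961 CPM).

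Without parental replicate 1, 4 members rose and 5 fell, against 39.6% of all genes. The 5 that joined, chosen after their values were seen, were Hist1h2ao (log2 change 1.92) and Hist1h1d (1.12, SE 0.282, adjusted p = 0.00336) on the higher side, and Hist1h4j (−1.29), Hist1h3a (−1.45) and Hist4h4 (−1.01) on the lower. RNAs without a tail moved in the same fit: of 7 tested, 4 were higher with vehicle, among them Rn7sk (2.35 ± 0.112 against 1.08 ± 0.325 CPM) and Rmrp (0.889 ± 0.321 against 0.401 ± 0.175). Their part in the histone calls was not tested. With all libraries, 21 of 43 DNA replication genes fell and 1 rose, against 19.3% of all genes lower, led by Pola1 (−0.71), Mcm5 (−0.67) and Tk1 (−0.64), and Nasp, a chaperone of free histones, fell by 0.26 (adjusted p = 0.0334).

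No clustered histone gene passed the test when TGF-beta1 was added to those cells. With edgeR, with DESeq2 and with the replicate number as a block 0 of 48 passed, and with edgeR 0 had an unadjusted p under 0.05, against 1.91% of all genes passing (1.26% higher and 0.654% lower). Hist1h1c stood at 12.7, 9.04 and 9.55 CPM with TGF-beta1 and at 10.6, 7.29 and 9.22 with vehicle, and the libraries overlapped (log2 change 0.21, SE 0.329, adjusted p = 0.897). Hist1h2bc was at 3.24 ± 0.916 and 2.27 ± 0.396 CPM (log2 change 0.52, SE 0.361), and Hist2h2be at 6.48 ± 0.317 and 7.79 ± 0.713 (log2 change −0.27, SE 0.184). With the block, Hist1h2bc had a log2 change of 0.48 and an unadjusted p of 0.0378 (adjusted p = 0.303). Without parental replicate 1, 0 passed against 2.13% of all genes (1.44% higher and 0.692% lower), and Hist1h2bj, an H2B gene, had an unadjusted p of 0.0307. Among the genes around them, Asf1a, a histone chaperone, rose by 0.44 (adjusted p = 0.0141), H2afj, a replacement H2A, fell by 0.47 (adjusted p = 0.0486), and none of 16 processing or 43 replication genes passed.

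The metastasis-derived lines were compared with each other first, since parental replicate 1 is in neither. Every call was lower in M11 than in M12: 3 of 48 members (6.25%), against 35.5% of all genes in either direction and 17.8% lower. The median log2 change of the members was −0.52, and 0 over all genes. Hist2h2be stood at 7.37, 7.23 and 5.58 CPM in M11 and at 12.1, 13.7 and 8.78 in M12 (log2 change −0.77, SE 0.188, adjusted p = 0.0027). Hist1h4b, an H4 gene of chr13:23757013-23757409, stood at 0.267, 0.376 and 0.163 CPM in M11 and at 0.951, 1.12 and 0.993 in M12 (log2 change −1.89, SE 0.587, adjusted p = 0.0156). Hist1h3f, an H3 gene of chr13:23544052-23545312, stood at 0.579, 0.564 and 0.774 CPM in M11 and at 1.49, 1.5 and 1.48 in M12 (log2 change −1.24, SE 0.469, adjusted p = 0.0451). None of these 3 genes overlapped between the lines.

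Hist1h3f lost its call on leaving out any 1 of the 6 libraries (−1.16 to −1.37), and Hist1h4b on leaving out M11 replicate 1 (−1.86) or 3 (−1.68). With the replicate number as a block, which pairs these libraries, 4 members were lower, Hist1h3c (H3) joining them at −1.72 (adjusted p = 0.0273, against 0.0824 unpaired). Without parental replicate 1, 10 of 48 were lower (20.8%) and none higher, against 18.1% of all genes lower. The 7 that joined, chosen after their values were seen, were Hist1h3c, Hist1h3i and Hist1h3e (H3), Hist1h4c and Hist1h4d (H4), Hist2h2aa2 (H2A) and Hist1h1a (H1), with log2 changes from −0.71 to −1.54. Of the tail-less RNAs none of 7 passed in either fit, and 1 had an unadjusted p under 0.05 without that library. Hist1h1c (14.8 ± 4.61 against 21.2 ± 11.3 CPM) and Hist1h2bc (8.19 ± 1.91 against 11 ± 6.3) overlapped, with M12 replicate 1 highest in each.

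Beside these, Slbp was lower in M11 than in M12 by 0.31 on the log2 scale (adjusted p = 0.00291) and H1f0 lower by 0.61 (adjusted p = 0.000555). Mcm2, part of the replicative helicase, was higher in M11 by 0.73 and Asf1a by 0.74. Over the lists, 2 of 16 processing genes were higher and 3 lower, 4 of 18 chaperones higher and 1 lower, and 6 of 43 replication genes higher and 6 lower, beside 35.5% of all genes called. Pcna did not pass (log2 change −0.13, adjusted p = 0.221).

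Against the parental line nearly every tested member appeared lower in each derivative, and this rested on parental replicate 1. With all libraries, 41 of 48 members were lower in M11 and none higher, against 20% of all genes lower, and 36 were lower and 2 higher in M12, against 50.1% called, 25.2% lower and 24.9% higher. The median log2 change of the members was −2.81 in M11 and −1.94 in M12. Without that library the counts were 5 lower and 1 higher in M11 (34% of all genes called) and 0 lower and 5 higher in M12 (45.7%), and the medians −0.45 and 0.1. Hist1h1d had 0.456 ± 0.0529 CPM in M11, 0.475 ± 0.0363 in M12, and 28.3, 0.524 and 0.568 in the parental libraries.

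In M11, without parental replicate 1, Hist1h3f was lower (0.639 ± 0.117 CPM against 1.73 and 2.04, log2 change −1.58, SE 0.262, adjusted p = 7.07e-05). Hist1h3c (−1.85), Hist1h4b (−1.59), Hist1h3i (−1.65) and Hist1h2ad (−1.52) were lower too, and Hist1h2bc was higher (8.19 ± 1.91 CPM against 4.26 and 4.03, log2 change 0.99, adjusted p = 0.0434). All but Hist1h3f and Hist1h2bc were under 1.1 CPM on average in both groups. In the same fit Slbp was lower in M11 by 0.52 on the log2 scale (adjusted p = 2.4e-05), with 5 of 16 processing genes lower and none higher, beside 34% of all genes called. Of the tail-less RNAs, Rpph1 was higher in M11 without parental replicate 1 (11.7 ± 9.69 CPM against a mean of 1.25), and its part was not tested.

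In M12, Hist2h2be was higher in both fits: 12.1, 13.7 and 8.78 CPM against 8.44, 7.34 and 7.21 in the parental libraries, without overlap (log2 change 0.59, adjusted p = 0.0117, and 0.66 without parental replicate 1, adjusted p = 0.0147). The call was lost without parental replicate 2 (0.54) or M12 replicate 2 (0.44). Hist1h2bc was called higher as well (log2 change 1.01, adjusted p = 0.0222), but its libraries overlapped, and the change was 0.44 and no longer called without M12 replicate 1, which stood at 18.3 CPM against 6.85 and 7.96 in the other 2. Without parental replicate 1, Hist1h2bg (0.75), Hist2h2aa2 (0.96) and Hist3h2a (0.64) joined them. Of the tail-less RNAs 1 was then higher (Rpph1, 11 ± 6.19 CPM against a mean of 1.25) and 1 lower (Gm42418) in M12, and their part was not tested. With all libraries, H3f3b, which encodes the replacement histone H3.3, was lower in M12 by 0.53, and 18 of 43 replication genes were lower and 6 higher, beside 50.1% of all genes called.

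The last comparison sets the empty-vector line against the untreated parental line. Hist1h2bc and Hist1h1c were higher in EV with and without parental replicate 1. Hist1h1c stood at 43.7, 40.9 and 38.2 CPM in EV against 24.1, 11 and 19.1 (log2 change 1.18, SE 0.325, adjusted p = 0.0053), and at 1.47 on the log2 scale without that library. Hist1h2bc stood at 15.2, 13.5 and 12.3 CPM against 8.1, 4.26 and 4.03 (log2 change 1.33, SE 0.348, adjusted p = 0.00342), and at 1.74 without that library. The comparison of ZBTB18OE with EV shares these EV libraries. Beside them, Hist1h1c was at 16.9 ± 1.49 CPM in ZBTB18OE and at 11 and 19.1 in parental replicates 2 and 3, and Hist1h2bc at 2.78 ± 0.961 and at 4.26 and 4.03.

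With all libraries 44 of 48 were lower and 2 higher, against 29% and 28.9% of all genes, with a median log2 change of −2.85. Without parental replicate 1, 15 were lower and 2 higher (50.3% of all genes called, 23.7% lower), with a median of −0.70. Among the 15 were Hist1h4m (0.258 ± 0.0409 CPM against a mean of 0.862, log2 change −1.69, adjusted p = 6.41e-05), Hist1h1a (−1.85), Hist1h1b (−1.88) and Hist2h2be (−0.74, adjusted p = 0.00617). In that fit 3 of the 7 tail-less RNAs were lower in EV as well, Gm42418 (387 ± 88.3 CPM against a mean of 752), Rn7s1 and Rn7s2, and Rmrp was higher. Their part was not tested. With all libraries, where 58% of all genes were called, 7 of 16 processing genes were higher and 2 lower, among them Npat, the coactivator of histone genes (0.60), and of the replication genes 23 of 43 were higher and 9 lower. Cenpa, the centromeric H3, was lower by 1.05, and the chaperones Chaf1a and Nasp were higher by 0.58 and 0.50.

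**Figure D4:**
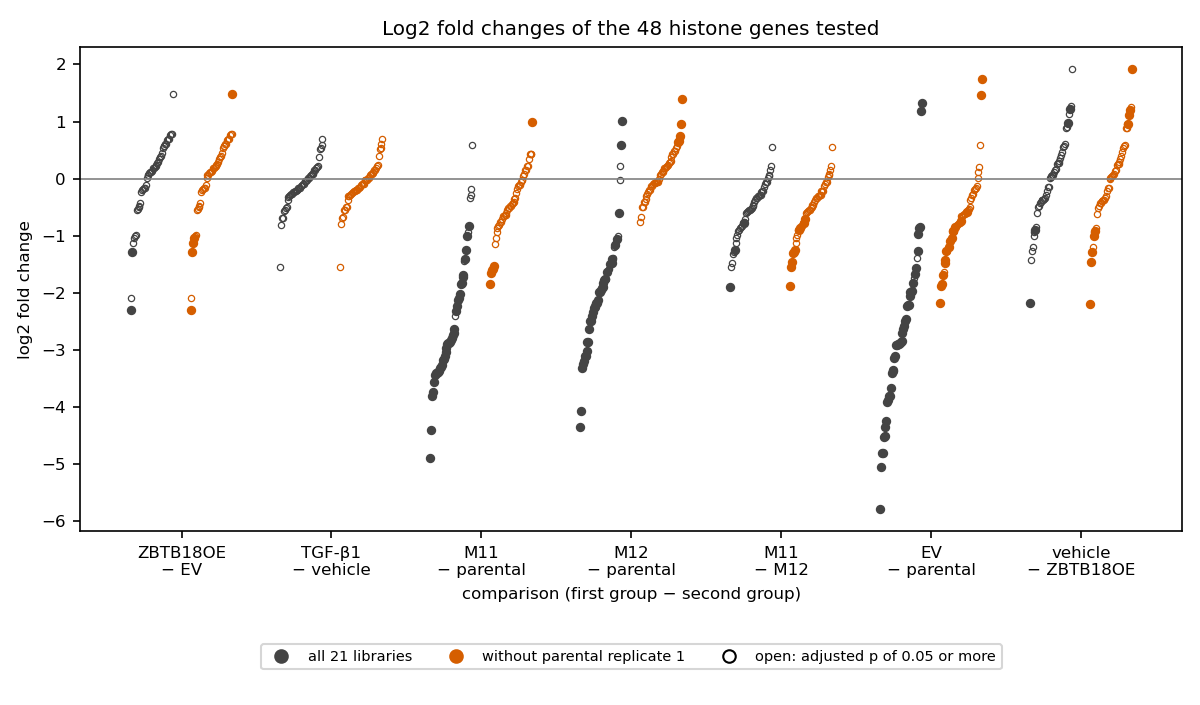
Log2 fold change (first group minus second) of the 48 clustered histone genes tested in each of the 7 comparisons, with all 21 libraries and without parental replicate 1; each point is 1 gene in rising order, filled where it passed at an adjusted p under 0.05 and open where it did not. The medians of the 3 comparisons with the parental line move from −2.81, −1.94 and −2.85 to −0.45, 0.1 and −0.70 when that library is left out, and those of the other 4 move by at most 0.02.

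The pattern of Hist1h1d over the groups, with parental replicate 1 left out, was lowest in ZBTB18OE (0.168 ± 0.014 CPM), then TGF-beta1 (0.252 ± 0.0296), EV (0.344 ± 0.0637), vehicle (0.366 ± 0.0503), M11 (0.456 ± 0.0529), M12 (0.475 ± 0.0363) and the parental line (0.546, n = 2). The neighbours EV and vehicle, and M11 and M12, did not differ beyond their spread. The genes whose log2 CPM correlated best with it over the 7 group means were Cyp2d22 (Pearson r = 0.981), Aloxe3 (0.972), Gm5874 (0.968), Il15ra (0.962) and 1700055D18Rik (0.96). These are the best of all tested genes over 7 points from shared libraries, given as a description.

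Replicate spread was wide in these genes, which limits what could be called. The median SD of log2 CPM within a group was 0.319 to 0.416 over the members in the 6 groups other than the parental line, against 0.094 to 0.187 over all genes. In the parental line it was 1.93 with replicate 1 and 0.252 without it. Genes at similar levels were about as variable: for the 24 members in the middle of the members' range, without parental replicate 1, the SD was 0.228 to 0.453, against 0.293 to 0.415 for all genes in that range.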

How the data were processed

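RNA-seq was done on 21 libraries in 7 groups of 3, each mapped to its group by its label. Per the submitters' processing notes, the authors' tools included STAR 2.7.1a, RSEM, Trim Galore and GATK 4.1.2.0, with genome build mm10. The deposited table holds RSEM expected counts per gene, which were rounded to whole numbers (1.28% of values, and 5.9% of the members' values, were not whole). The deposited TPM table was used for levels between genes and for alternatives. The FPKM table was not used. 92 spike-in rows were left out, and every sample column was mapped. The strand setting of the counting is not given in the sources used here.

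Genes were filtered with edgeR 4.0.16 (filterByExpr by group), scaled by TMM and tested with its robust quasi-likelihood test in R 4.3.3, where all 21 libraries shared 1 estimate of spread on 14 residual degrees of freedom, and Benjamini-Hochberg adjustment over all genes tested at 0.05. CPM values are TMM-scaled. SDs are over 3 libraries. The scripts were tested on simulated data. Alternatives used DESeq2 1.42.0, other filters and scalings, limma 3.58.1 on log2(TPM + 1) and log2(TPM + 0.1), the 6 libraries of a comparison alone, a replicate block, ribosomal RNA genes left out, and each library left out.

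Members and lists were chosen with earlier results of these data known. Named genes were all H1 members, the 3 members known for polyadenylated forms, the 3 of highest TPM per class, testis forms, those outside chromosome 13, and the 6 highest and 6 lowest called per comparison at 1 CPM or more. From the lists of related genes, preset names and up to 3 of the strongest calls per comparison could be named. Genes named from fits without parental replicate 1 beyond this rule were chosen after their values were seen.

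Replicate numbers were checked as pairs by correlating deviations from group means. Every same-numbered pair exceeded 0.1 for TGF-beta1 and vehicle (0.302, 0.141, 0.351) and for M11 and M12 (0.167, 0.292, 0.166), so the block is printed beside a result there where it changes a call.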

Additional observations from a re-analysis of the deposited data

Results flagged for a closer look

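The difference between M11 and M12 is also the difference between the 2 lines' changes from the parental line, since both share its libraries. It passed the edgeR quasi-likelihood test for 3 clustered histone genes, all lower in M11: Hist2h2be (log2 −0.77), Hist1h4b (−1.89) and Hist1h3f (−1.24).

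Of the histone pseudogenes, 3, left out by the protein-coding rule, had counts in parental replicate 1 above those of every other library. Hist1h2aj had 28 counts there and at most 10 elsewhere, Hist3h2bb-ps 24 and at most 14, and Hist1h2al 16 and at most 1. These RNAs can share reads with intact members. Groups of 3 are too small for the check on single outlying libraries, so parental replicate 1 is not listed by it.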

How the results depend on the processing

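Hist1h2bc and Hist1h1c stayed lower in ZBTB18OE than in EV under all 16 alternatives run for each (log2 −2.07 to −2.57 and −1.20 to −1.35). Counts of members called moved with parental replicate 1, whose removal was planned for the 3 comparisons with the parental line and chosen after seeing the data for the others. Without it they were 5 in place of 2 (ZBTB18OE against EV), 6 in place of 41 (M11 against parental), 5 in place of 38 (M12 against parental), 10 in place of 3 (M11 against M12), 17 in place of 46 (EV against parental) and 9 in place of 4 (vehicle against ZBTB18OE). The 6 libraries of each comparison alone gave 5, 2, 1, 8, 11 and 9 in the same order. No filter gave 7 for ZBTB18OE against EV, 10 for M11 against M12 and 9 for vehicle against ZBTB18OE. For M11, M12 and EV against parental, a minimum of 1 CPM gave 14, 13 and 18, log2(TPM + 1) 13, 4 and 22, and log2(TPM + 0.1) 15, 3 and 27, and the latter gave 8 for vehicle against ZBTB18OE. Leaving out each compared library gave 2 to 2, 6 to 47, 5 to 48, 1 to 2, 17 to 52 and 2 to 3 in the first order; other than parental replicate 1, the counts were 33 to 47 for M11, 20 to 48 for M12 (20 and 25 without its replicates 2 and 3) and 45 to 52 for EV. TGF-beta1 against vehicle gave 0 throughout.

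Among the called values of named genes, the sign of 12 turned without parental replicate 1. Called genes outside the named ones were not counted for this. Their ranges over all left-out libraries, the upper end being without that library, were in M11 −3.99 to 0.16 for Hist2h3c2, −2.20 to 0.22 for Hist1h2bg, −3.58 to 0.09 for Hist2h2aa2 and −3.71 to 0.44 for Hist2h4. In M12 they were −4.63 to 0.07 for Hist1h4f, −3.67 to 0.49 for Hist2h3c2, −2.66 to 0.53 for Hist1h1a, −3.58 to 0.22 for Hist1h1e, −2.75 to 0.20 for Hist1h4h, −2.72 to 0.96 for Hist2h2aa2, −3.05 to 0.24 for Hist1h2bb and −3.45 to 0.72 for Hist2h4. The cause of the other shifts was not tested. The replicate block gave counts of 2, 39, 32, 4, 46 and 5 in the same order. Outside M11 against M12 and TGF-beta1 against vehicle, some same-numbered pairs correlated but not all did. In vehicle against ZBTB18OE the values were 0.161, −0.0363 and 0.192. In these other comparisons the block added Hist1h2ao in vehicle against ZBTB18OE. It also added Hist1h2bc in M11 against parental (0.62, adjusted p = 0.0198) and Hist1h2ac in M12 against parental (adjusted p = 0.0481). In those last 2 comparisons 3 and 7 calls were lost. Over all genes, TGF-beta1 against vehicle called 295, with DESeq2 594, no filter 633, its 6 libraries alone 1349, log2(TPM + 1) 112, log2(TPM + 0.1) 81, and 71 to 183 with a library left out. The 6 libraries alone called 4015 genes in place of 6288 for M11 against parental, 5113 in place of 7737 for M12 against parental and 3497 in place of 5474 for M11 against M12. Members at a few counts per library limit what can be called.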
